A study of Mus musculus with 18 samples.

Results

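The genes described here are 44 listed mouse genes of the cell division cycle: cyclins and their kinases, kinase inhibitors, E2F factors, replication genes and mitosis genes. They were listed by name, with earlier results of these data known. Each was represented by the probe with the highest mean level among those annotated to it. Of the 44, 42 had a probe in the gene table used, and 37 passed the detection filter (detection p under 0.05 on at least 3 arrays) among 10529 genes tested in all. Ccnb1, a B-type cyclin, and Mki67, the gene of the Ki-67 proliferation antigen, were not analysed here, as no probe carried their names. Ccnb2, Bub1, Kif20a and Ube2c, all mitosis genes, were detected on 0 of 17 arrays, and Gmnn, an inhibitor of replication licensing, on 2. Of the 37 tested genes, 27 were detected on every array with a detection value for them. Ccna2, an S and G2 phase cyclin, was detected on 3 of 17 arrays and the D cyclin Ccnd1 on 5, so both lay near background.

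The RNA was from bone marrow-derived mast cells, cultured from marrow of the strain C57BL/6J at an age of 4 to 6 weeks, and was hybridised to 18 Illumina bead arrays, 3 in each of 6 groups. The groups were ST2KO cells under IL-33 for 4 h, ST2KO cells under IgE stimulation for 4 h, unstimulated ST2KO cells, WT (wild type) cells under IL-33 for 4 h, WT cells under IgE stimulation for 4 h, and unstimulated WT cells. In ST2KO cells the IL-33 receptor ST2 is knocked out. Crosslinking by antigen of IgE bound to its high-affinity receptor is the classical trigger of mast cell degranulation. Doses, any antigen used with IgE, and whether arrays of a group came from separate cultures or animals, are not given in the labels, so the tests reflect array-to-array spread, which may be technical. A level is the log2 normalized intensity of a probe, whose floor lies near 4, and levels of different genes are not compared because probes differ in brightness. In bulk RNA, fewer cycling cells and less of a transcript per cell cannot be told apart. All 10 mast cell markers examined, among them Kit and Fcer1a, were detected on every complete array.

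A cell enters the division cycle when D cyclins, bound to Cdk4 or Cdk6, phosphorylate the retinoblastoma protein and release E2F factors, which then switch on the genes of DNA replication. The Mcm2-7 helicase is loaded at origins by Cdc6 and Cdt1, cyclins E and A drive S phase with Cdk2, and Cdk1 with its cyclins drives mitosis. The inhibitors of the Cip/Kip and INK4 families hold these kinases back. Mast cells in culture keep dividing under growth factors, and many of the later genes are transcribed mainly in dividing cells.

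The promoter windows of Cenpa, Cdkn1b, Ccnd3 and Mcm6 are shown. Apart from E2f1 and Cdk6, they had the smallest adjusted p in the WT comparisons below (limma) among listed genes with a window. Each is the 250 bases before the start given in the RefSeq table (build GRCm38.p6), 5′ to 3′ on the gene's strand. The windows of E2f1 and Cdk6 are left out, because their start in that table lay 466 and 2889 bases inside the annotated gene. Capitals mark CCAAT, the CHR letters (TTTGAA or TTCGAA) or E2F letters (TTTCCCGC or TTTCGCGC or TTTGCCGC or TTTGGCGC) on either strand.
Cenpa: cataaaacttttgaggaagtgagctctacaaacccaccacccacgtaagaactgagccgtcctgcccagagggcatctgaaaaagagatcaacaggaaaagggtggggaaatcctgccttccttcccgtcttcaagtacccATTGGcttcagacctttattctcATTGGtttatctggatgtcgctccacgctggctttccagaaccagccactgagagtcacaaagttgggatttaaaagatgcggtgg
Cdkn1b: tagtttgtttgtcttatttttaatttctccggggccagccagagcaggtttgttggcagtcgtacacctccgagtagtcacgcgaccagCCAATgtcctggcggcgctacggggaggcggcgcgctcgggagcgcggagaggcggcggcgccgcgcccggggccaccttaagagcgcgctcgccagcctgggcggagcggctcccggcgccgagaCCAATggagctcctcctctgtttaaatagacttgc
Ccnd3: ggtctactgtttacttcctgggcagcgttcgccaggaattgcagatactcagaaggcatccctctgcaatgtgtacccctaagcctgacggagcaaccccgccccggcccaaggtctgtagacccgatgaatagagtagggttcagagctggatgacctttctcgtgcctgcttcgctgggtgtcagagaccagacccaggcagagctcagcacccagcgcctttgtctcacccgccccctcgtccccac
Mcm6: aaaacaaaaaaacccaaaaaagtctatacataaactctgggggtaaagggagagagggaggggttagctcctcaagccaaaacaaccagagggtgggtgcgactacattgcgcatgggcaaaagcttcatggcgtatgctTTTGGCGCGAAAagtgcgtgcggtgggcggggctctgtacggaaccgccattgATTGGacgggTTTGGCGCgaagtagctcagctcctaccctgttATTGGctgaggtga
The windows lie at chr5:30666636-30666885 (plus strand) for Cenpa and chr6:134920151-134920400 (plus strand) for Cdkn1b. Those of Ccnd3 and Mcm6 lie at chr17:47504801-47505050 (plus strand) and chr1:128359706-128359955 (minus strand). The Mcm6 window held 3 E2F matches, of which 2 overlap on opposite strands, and 2 CCAAT matches. Cenpa and Cdkn1b each held 2 CCAAT matches, and the Ccnd3 window held none of the letters. Ccnd3 had 2 windows, and only the window at the lower coordinate was used. Over the 36 listed genes with a window, E2F letters occurred in 13.9%, against 1.96% of 27025 genes, CCAAT in 66.7% against 34.2%, and the CHR letters in 25% against 17.4%. The 5 genes with E2F letters were Cdk1, Cdk2, Mcm5, Mcm6 and Cdc6. For 8 of the 36 the start lay over 50 bases inside the annotated gene, E2f1, Cdk6 and Cdc6 among them, and such windows may not be promoters. A match is a description of the letters and not a bound site.

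Array 3 of each group differed from arrays 1 and 2 of the same group. On array 3 the listed genes were lower by a median of -1.40 in ST2KO IL-33, -0.57 in ST2KO IgE, -1.39 in unstimulated ST2KO, -0.73 in WT IL-33, -0.34 in WT IgE and -0.89 in unstimulated WT cells. Of 37 genes, 24 were lower on array 3 in all 6 groups, which is 64.9%, against 18.9% of all genes. Mcm5, a helicase subunit, differed by up to -4.12 in unstimulated ST2KO cells and by -0.42 in WT IgE cells. Cdk6 and the inhibitors Cdkn1a and Cdkn1b went the other way and were higher on array 3 in all 6 groups. Some macrophage and dendritic cell markers moved with the number as well. Of 9 tested, 3 were over 1 log2 unit higher on array 3 in all 6 groups. As a mean over the groups, the difference was 4.72 for Cd74, 4.47 for H2-Aa and 2.62 for H2-Ab1. The other markers of the list with a probe lay between -0.28 (Csf1r) and 0.92 (Lyz2). The summed level of the list was 8419 on array 3, against 1221 and 1552 on arrays 1 and 2, in WT IL-33 cells. In unstimulated WT cells that sum was 6352, against 899 and 922. Mrc1 of this list was detected on 0 arrays, as were 4 of 7 neutrophil markers with a probe, and no T, B or NK cell marker passed the filter. Markers of other lists moved with the number too. Averaged over the groups, array 3 differed by 5.66 for the mast cell protease gene Mcpt4, by 2.58 and -3.68 for the basophil protease genes Mcpt8 and Prss34, and by -1.80 for the haemoglobin gene Hba-a1. In all 6 groups, 1 of 10 mast cell and 1 of 4 basophil markers were over 1 log2 unit higher on array 3, and 1 of 4 basophil and 1 of 3 erythroid markers over 1 lower. The part of these markers in the results below was not tested. Comparisons were therefore paired by array number, and the same-numbered differences are given beside them. The intensity column of ST2KO IgE array 3 held 10012 of 45281 probes, so its levels were placed by the rank of its probes in the authors' table.

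**Figure D1:**
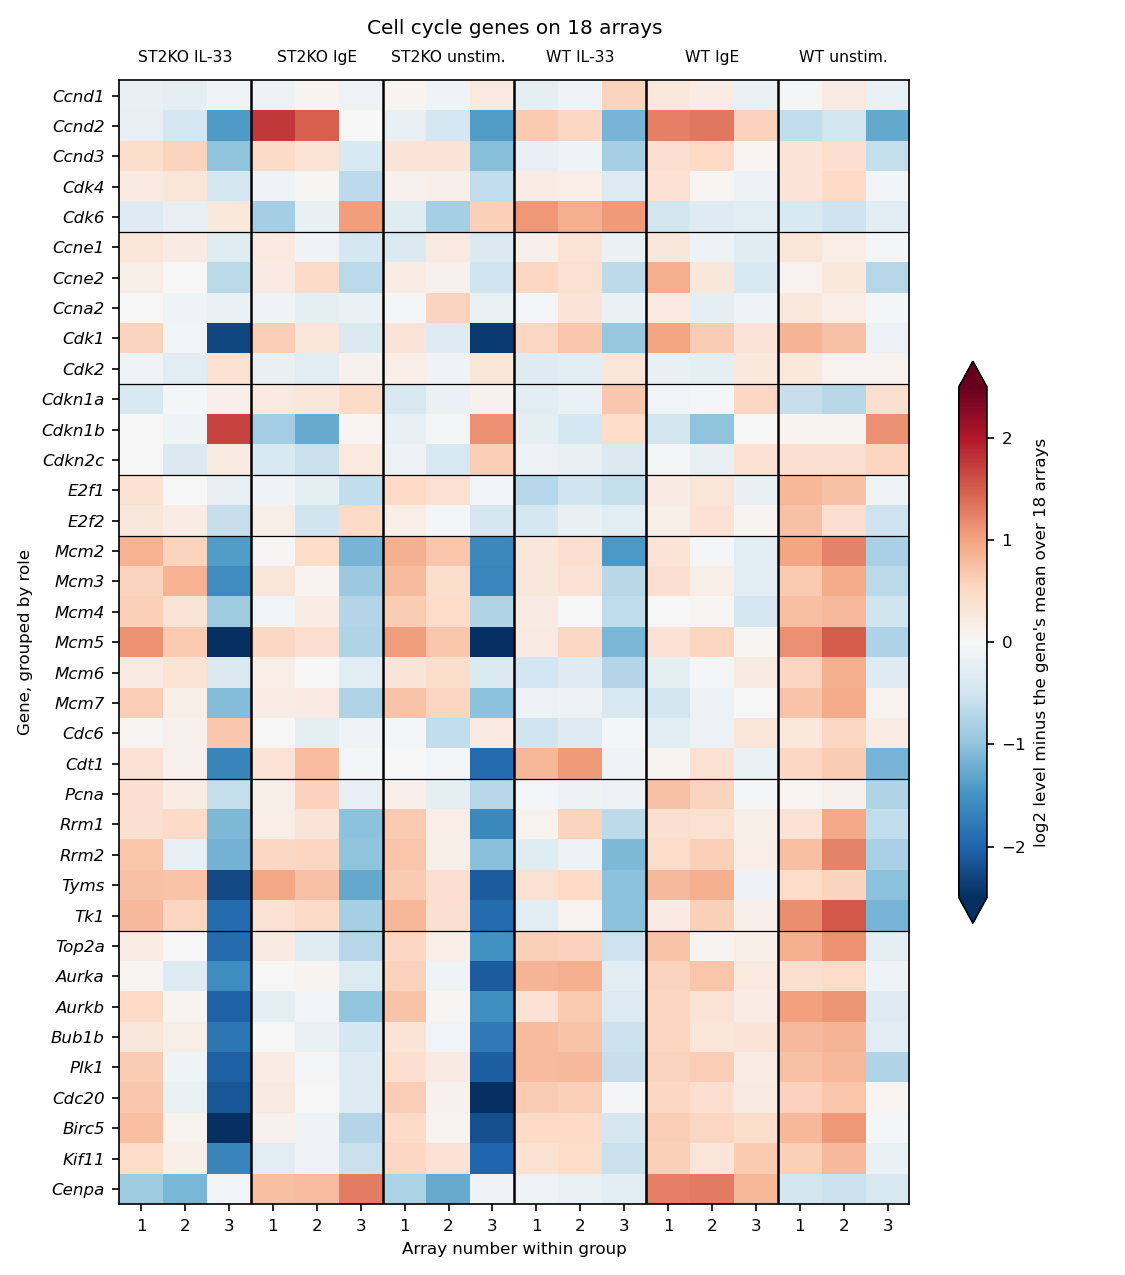
Level of the 37 tested cell cycle genes on each of 18 arrays, as log2 level minus the gene's mean over all arrays (colour, red higher and blue lower), with genes in rows by role and arrays 1, 2 and 3 of each group in columns. The columns numbered 3 are bluest in the replication and mitosis genes, reaching -4.12 against arrays 1 and 2 for Mcm5 in unstimulated ST2KO cells, and least so in WT IgE cells.

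**Figure D2:**
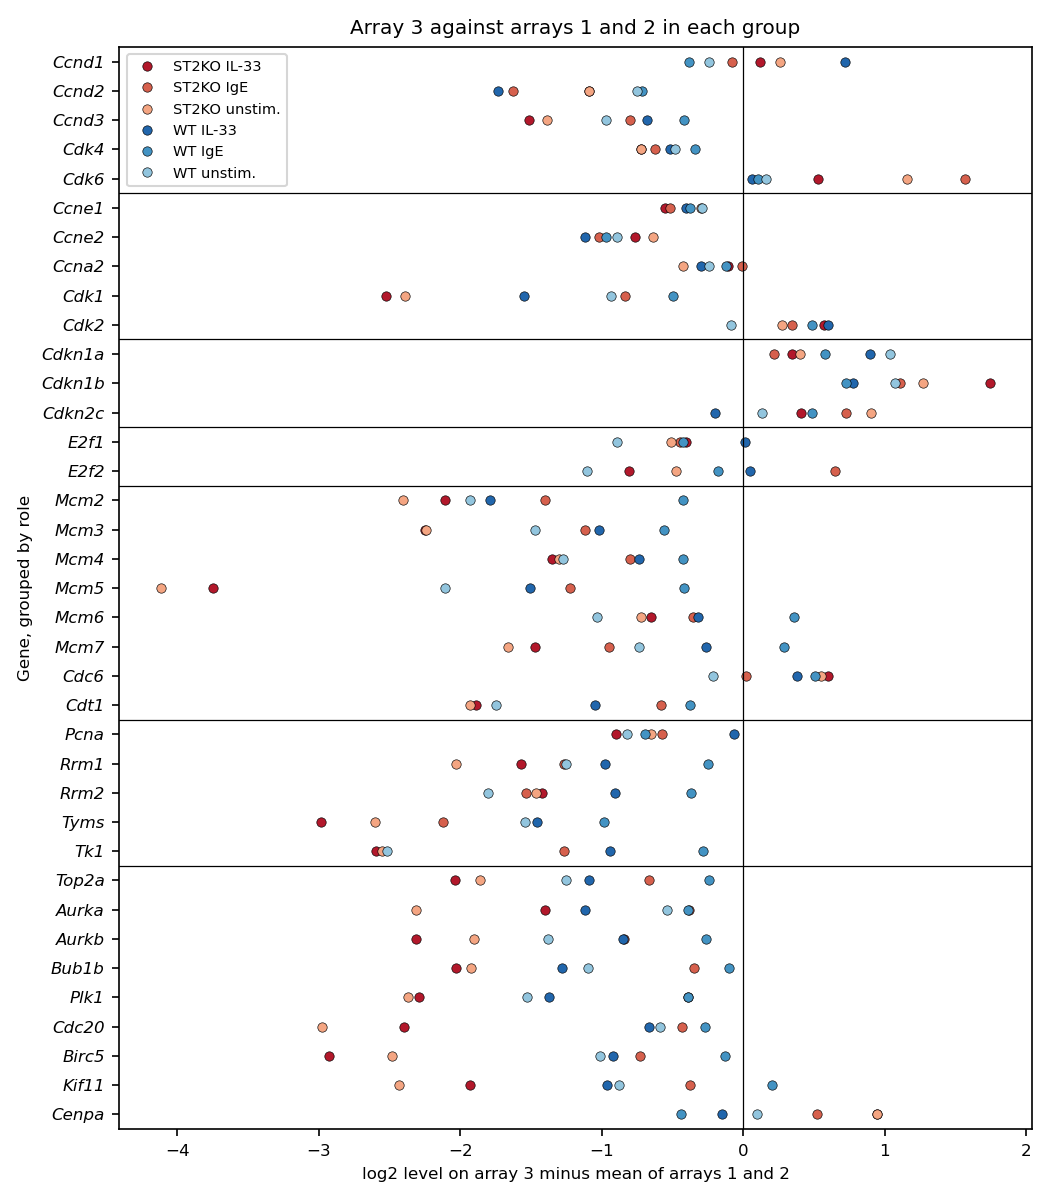
Level on array 3 minus the mean of arrays 1 and 2 (x axis, log2 units) for each tested gene (rows, by role) in each of the 6 groups (coloured points). In all 6 groups 24 of 37 genes lie left of 0, while Cdk6, Cdkn1a and Cdkn1b lie right of 0.

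In WT cells, IL-33 and IgE were each compared with no stimulation. Both comparisons share the unstimulated arrays. The D cyclin gene Ccnd2 rose with both, Cdk6 rose with IL-33, and the centromere histone gene Cenpa rose with IgE. With IL-33, 3 of 37 genes rose and 8 fell, where 13.5% of all 10529 genes rose and 18% fell in limma at an adjusted p of 0.05. With IgE, 5 rose and 3 fell, where 14.6% of all genes rose and 17.9% fell. The median of the 37 genes was -0.32 with IL-33, against -0.02 over all genes, and -0.08 with IgE, against -0.03. As shares of the 37 listed genes these counts were 8.11% and 21.6% with IL-33 and 13.5% and 8.11% with IgE. Without the pairing 1 rose and 1 fell with IL-33, where 11.8% of all genes passed in either direction, and 2 rose and 0 fell with IgE, where 11.9% did. With the arrays scaled by their medians instead, 2 rose and 13 fell with IL-33 while the median of all genes moved to -0.16, and 3 rose and 4 fell with IgE. Leaving out 1 array gave between 5 calls (without WT unstimulated array 2) and 17 calls (without ST2KO IgE array 3) with IL-33, and between 4 (without WT unstimulated array 1) and 11 (without WT unstimulated array 3) with IgE.

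**Figure D3:**
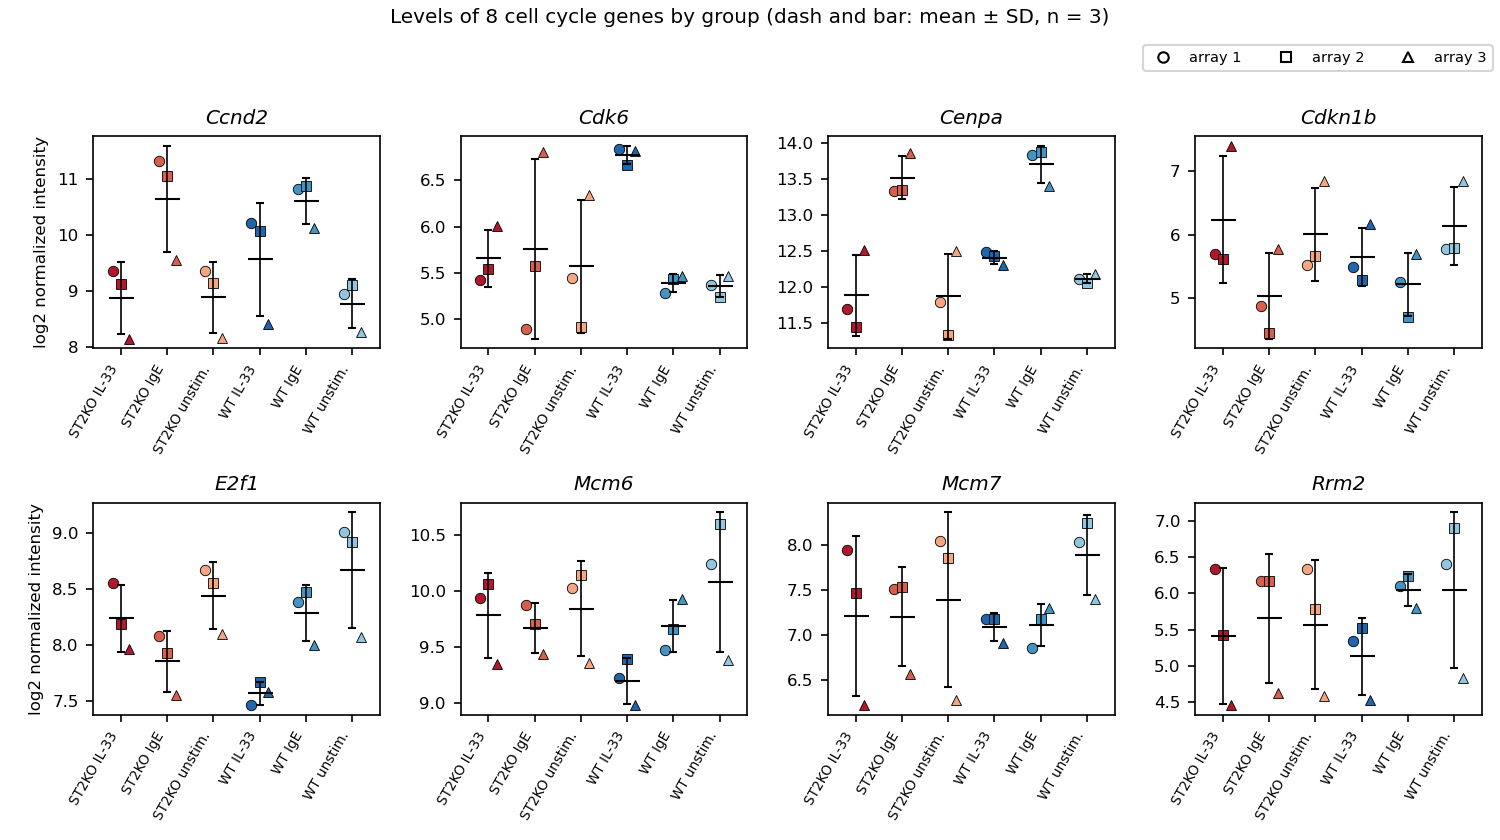
Levels of 8 cell cycle genes (y axis, log2 normalized intensity) on every array of the 6 groups, with circles, squares and triangles for arrays 1, 2 and 3 and a dash with a bar for the mean ± SD (n = 3). Cdk6 is higher on the 3 WT IL-33 arrays than on the other WT arrays, and Ccnd2 and Cenpa are higher on the IgE arrays of both genotypes than on their unstimulated arrays.

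Of the D cyclins and their kinases, Ccnd2 had levels of 10.21, 10.07 and 8.40 on WT IL-33 arrays 1, 2 and 3, and of 10.83, 10.87 and 10.13 on WT IgE arrays, against 8.94, 9.10 and 8.27 on unstimulated WT arrays. All IgE arrays lay above all unstimulated arrays, while the IL-33 and unstimulated arrays overlapped through array 3. The rise was 3.57-fold with IgE (log2 1.84 ± 0.18 SE, adjusted p = 2.08e-06, limma) and 1.73-fold with IL-33 (0.79 ± 0.18, adjusted p = 0.0034). The same-numbered differences were 1.89, 1.77 and 1.86 with IgE, but 1.27, 0.97 and 0.13 with IL-33. The IL-33 call was lost without WT IL-33 array 1 (adjusted p = 0.0503), and the IgE call held with any 1 array left out. The IL-33 call was also lost without the pairing and when the kept probes of the gene were averaged. A second bright probe of the gene gave 1.83 with IgE and 0.75 with IL-33. Over the settings that did not leave out 1 array, the difference went down to 1.23 with IgE and 0.40 with IL-33. The IgE call held in all of these settings.

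Cdk6, a kinase partner of the D cyclins, had levels of 6.84, 6.66 and 6.82 on WT IL-33 arrays and 5.28, 5.43 and 5.46 on WT IgE arrays, against 5.37, 5.24 and 5.46 on unstimulated WT arrays. The WT IL-33 arrays stood above all other WT arrays without overlap. Cdk6 rose 2.67-fold with IL-33 (1.42 ± 0.23, adjusted p = 0.000179), and stood at 0.04 ± 0.23 with IgE (adjusted p = 0.927). Its numbered differences with IL-33 were 1.47, 1.43 and 1.35, so array 3 moved like the others. This call held with any 1 array left out and without the pairing (adjusted p = 0.0276).

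Ccnd3, the D cyclin of many blood cells, had levels of 11.22, 11.32 and 10.59 on WT IL-33 arrays and 11.85, 11.91 and 11.46 on WT IgE arrays, against 11.74, 11.85 and 10.82 on unstimulated WT arrays. The groups overlapped through their arrays 3. Ccnd3 fell by 0.43 with IL-33 (SE 0.14, adjusted p = 0.0261) and stood at 0.27 with IgE. The fall was lost without WT unstimulated array 1 or 2 or without any WT IL-33 array (adjusted p up to 0.148), though all numbered differences were below 0 (-0.52, -0.53 and -0.23). Cdk4, the other D cyclin kinase, stood at -0.24 with IL-33 and -0.16 with IgE. Ccnd1 lay between 4.34 and 5.12 on all WT arrays, near background, and stood at 0.07 and 0.10.

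The 3 inhibitors did not move together. Cdkn1a, which encodes p21, had levels of 11.52, 11.62 and 12.46 on WT IL-33 arrays and 11.71, 11.74 and 12.30 on WT IgE arrays, against 11.21, 11.09 and 12.18 on unstimulated WT arrays. It was highest on array 3 of each group, so the groups overlapped, but it rose by number, by 0.37 ± 0.11 with IL-33 (adjusted p = 0.0131) and 0.42 ± 0.11 with IgE (adjusted p = 0.00575). The IL-33 call was lost without WT unstimulated array 1 or 2 or WT IL-33 array 2 (adjusted p up to 0.118), and the IgE call without WT unstimulated array 2 or WT IgE array 2 (up to 0.0636).

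Cdkn1b, which encodes p27, an inhibitor high in resting cells, had levels of 5.49, 5.28 and 6.16 on WT IL-33 arrays and 5.24, 4.70 and 5.70 on WT IgE arrays, against 5.77, 5.79 and 6.85 on unstimulated WT arrays. The IgE arrays lay below the unstimulated arrays without overlap. With IgE it was 1.90-fold lower (-0.93 ± 0.19, adjusted p = 0.00114), a call kept with any 1 array left out. With IL-33 it stood at -0.49 (adjusted p = 0.0529). A second, dimmer probe of the gene gave 0.05 with IgE.

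Cdkn2c, which encodes the INK4 inhibitor p18, had levels of 7.24, 7.21 and 7.02 on WT IL-33 arrays and 7.36, 7.20 and 7.77 on WT IgE arrays, against 7.79, 7.80 and 7.93 on unstimulated WT arrays. Neither stimulated group overlapped the unstimulated one. It fell by 0.68 with IL-33 (SE 0.16, adjusted p = 0.00435), with any 1 array left out as well, and stood at -0.39 with IgE (adjusted p = 0.0765).

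E2f1, the activator E2F released from the retinoblastoma protein, had levels of 7.47, 7.67 and 7.58 on WT IL-33 arrays and 8.38, 8.47 and 8.0 on WT IgE arrays, against 9.01, 8.91 and 8.07 on unstimulated WT arrays. The IL-33 arrays lay below all other WT arrays. E2f1 was 2.13-fold lower with IL-33 (-1.09 ± 0.16, adjusted p = 7.88e-05), a call kept with any 1 array left out and without the pairing (adjusted p = 0.00981). Its numbered differences were -1.54, -1.24 and -0.49, the smallest on number 3, where the unstimulated array was itself low. With IgE it stood at -0.38 (adjusted p = 0.0814). E2f2, another activator E2F, stood at -0.50 with IL-33 and -0.01 with IgE.

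Of the 8 replication licensing genes tested, 4 fell and 0 rose with IL-33, where 18% of all genes fell. With IgE 2 fell and 0 rose, where 17.9% of all genes fell. The medians of the 8 genes were -0.66 with IL-33 and -0.38 with IgE. Mcm6, a subunit of the replicative helicase, had levels of 9.23, 9.39 and 8.99 on WT IL-33 arrays and 9.47, 9.66 and 9.93 on WT IgE arrays, against 10.24, 10.60 and 9.39 on unstimulated WT arrays. On arrays 1 and 2 both stimulated groups were lower, while on array 3 the IgE level was the highest of the 3 groups. Mcm6 was 1.84-fold lower with IL-33 (-0.88 ± 0.20, adjusted p = 0.00265), also with any 1 array left out and in its other bright probes (-0.89 and -0.71). With IgE its numbered differences were -0.77, -0.94 and 0.54.

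Mcm7, another helicase subunit, had levels of 7.17, 7.18 and 6.92 on WT IL-33 arrays and 6.86, 7.17 and 7.30 on WT IgE arrays, against 8.03, 8.23 and 7.40 on unstimulated WT arrays. Neither stimulated group overlapped the unstimulated arrays. It fell by 0.80 with IL-33 (SE 0.21, adjusted p = 0.0069) and by 0.77 with IgE (adjusted p = 0.00813). The IL-33 call was lost without WT unstimulated array 1 or 2 (adjusted p up to 0.0638), and the IgE call without any of WT unstimulated arrays 1 and 2 and WT IgE arrays 1 and 2 (up to 0.0783).

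Mcm4, a further subunit, had levels of 10.67, 10.49 and 9.85 on WT IL-33 arrays and 10.47, 10.51 and 10.06 on WT IgE arrays, against 11.23, 11.29 and 9.99 on unstimulated WT arrays. The groups overlapped through array 3, where the levels nearly met. Mcm4 fell by 0.50 with IL-33 (SE 0.16, adjusted p = 0.0274) and by 0.49 with IgE (adjusted p = 0.0299). Each call was lost without array 1 or 2 of either group compared (adjusted p up to 0.202 and 0.216).

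Cdc6, which loads the helicase at origins, had levels of 6.09, 6.27 and 6.56 on WT IL-33 arrays and 6.29, 6.44 and 6.88 on WT IgE arrays, against 6.85, 7.11 and 6.77 on unstimulated WT arrays. The IL-33 arrays lay below the unstimulated ones. It fell by 0.60 with IL-33 (SE 0.20, adjusted p = 0.0266), a call lost without array 1 or 2 of either group (up to 0.167). Its partner Cdt1 stood apart from the other licensing genes at 0.60 with IL-33 and 0.09 with IgE, without passing.

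Mcm5 had levels of 9.27, 9.56 and 7.91 on WT IL-33 arrays and 9.41, 9.59 and 9.08 on WT IgE arrays, against 10.19, 10.56 and 8.27 on unstimulated WT arrays. On arrays 1 and 2 the unstimulated level was the highest, and on array 3 the IgE level was. The gene did not pass, at -0.77 ± 0.43 with IL-33 and -0.32 ± 0.43 with IgE (adjusted p = 0.2 and 0.624).

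The opposed direction on number 3 was widespread with IgE in WT cells. There 17 of 37 genes were below 0 on numbers 1 and 2 and above 0 on number 3, among them 7 of the 8 licensing genes, and over all genes number 3 opposed both others in 18.4%, in either direction. The median difference of the 37 genes was -0.18, -0.44 and 0.46 on numbers 1, 2 and 3. With IL-33 those medians were -0.28, -0.37 and -0.14, and all 8 licensing genes kept 1 direction on the 3 numbers. Without the 6 arrays numbered 3, 5 genes rose and 16 fell with IgE, where 17.4% of all genes rose and 21.9% fell. Under IL-33 4 rose and 16 fell, where 17.4% of all genes rose and 23.4% fell. In that fit 7 of 8 licensing genes fell with each stimulus, among them Mcm5 (-0.88 with IgE and -0.97 with IL-33, adjusted p = 5.17e-07 and 8.62e-08), and the medians of all 37 genes were -0.32 and -0.34. The genes that rose or fell in the fit on all arrays did so there too. Only arrays 1 and 2 of each group entered that fit, which had 4 residual degrees of freedom. These arrays resembled each other more (lowest correlation 0.992) than arrays 1 and 3 did (highest 0.968). The small p-values of that fit, here and below, rest on the spread between the closer arrays alone. On all arrays Mcm5 did not pass with either stimulus.

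Of the 5 genes of nucleotide supply and the replication clamp, 1 fell with IL-33, where 18% of all genes fell. With IgE 2 of them rose, where 14.6% of all genes rose. Rrm2, the regulated subunit of ribonucleotide reductase, had levels of 5.35, 5.52 and 4.53 on WT IL-33 arrays and 6.10, 6.24 and 5.80 on WT IgE arrays, against 6.40, 6.89 and 4.84 on unstimulated WT arrays. The IL-33 arrays lay below the IgE arrays, and the unstimulated arrays overlapped both. Rrm2 was 1.88-fold lower with IL-33 (-0.91 ± 0.24, adjusted p = 0.00867), lost without WT unstimulated array 1 or 2 or WT IL-33 array 2 (up to 0.102).

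Pcna, the sliding clamp of DNA polymerases, had levels of 7.13, 7.05 and 7.03 on WT IL-33 arrays and 7.90, 7.72 and 7.12 on WT IgE arrays, against 7.22, 7.27 and 6.42 on unstimulated WT arrays. By number, IgE arrays were higher throughout (0.68, 0.45 and 0.70), although the groups overlapped. Pcna rose by 0.61 ± 0.19 with IgE (adjusted p = 0.0207) and stood at 0.10 with IL-33. The call was lost without WT unstimulated array 1 or 3 or WT IgE array 1 or 2 (up to 0.116), and with median scaling.

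Tyms, thymidylate synthase, had levels of 8.95, 9.06 and 7.55 on WT IL-33 arrays and 9.38, 9.45 and 8.44 on WT IgE arrays, against 9.03, 9.13 and 7.54 on unstimulated WT arrays. The IL-33 and unstimulated levels were close on each number. Tyms rose by 0.52 ± 0.17 with IgE (adjusted p = 0.0222), lost without WT unstimulated array 1 or 3 or WT IgE array 3 (up to 0.17), and its 3 dimmer probes did not pass (0.12, 0.02 and -0.21). Rrm1, the other reductase subunit, and Tk1, thymidine kinase, did not pass. Tk1 stood at -0.92 with IL-33 (adjusted p = 0.0609), with numbered differences of -1.43, -1.46 and 0.13.

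None of the 5 tested genes among the E and A cyclins, Cdk1 and Cdk2 passed with either stimulus in WT cells in limma, with 0 at an unadjusted p under 0.05 with IL-33 and 1 with IgE. Their differences lay between -0.40 and 0.20 with IL-33 and between -0.20 and 0.39 with IgE. Cdk1, the mitotic kinase, stood at -0.40 and 0.17. Ccne1 and Ccne2 were each detected on 12 of 17 arrays and Ccna2 on 3. These 3 genes lay close to the floor, so a fall in them could be missed.

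Of the 9 mitosis genes tested, 0 passed with IL-33 in limma, with 1 at an unadjusted p under 0.05. With IgE, where 14.6% of all genes rose, 1 of the 9 rose. That gene was Cenpa, which encodes the histone H3 variant of centromeres. Its levels were 12.48, 12.42 and 12.30 on WT IL-33 arrays and 13.83, 13.87 and 13.41 on WT IgE arrays, against 12.11, 12.04 and 12.18 on unstimulated WT arrays. The 3 groups did not overlap, with IgE highest and no stimulation lowest. Cenpa rose 3.01-fold with IgE (1.59 ± 0.12, adjusted p = 2.37e-07), a call kept with any 1 array left out and without the pairing (adjusted p = 0.00195), and its second probe gave 1.63. With IL-33 it stood at 0.29 ± 0.12 (adjusted p = 0.0879). The other 8, which encode the spindle and checkpoint kinases Aurka, Aurkb, Bub1b and Plk1, the topoisomerase Top2a, the anaphase activator Cdc20, the survivin Birc5 and the spindle motor Kif11, lay between -0.43 and 0.24 with IL-33 and between -0.28 and 0.24 with IgE.

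**Figure D4:**
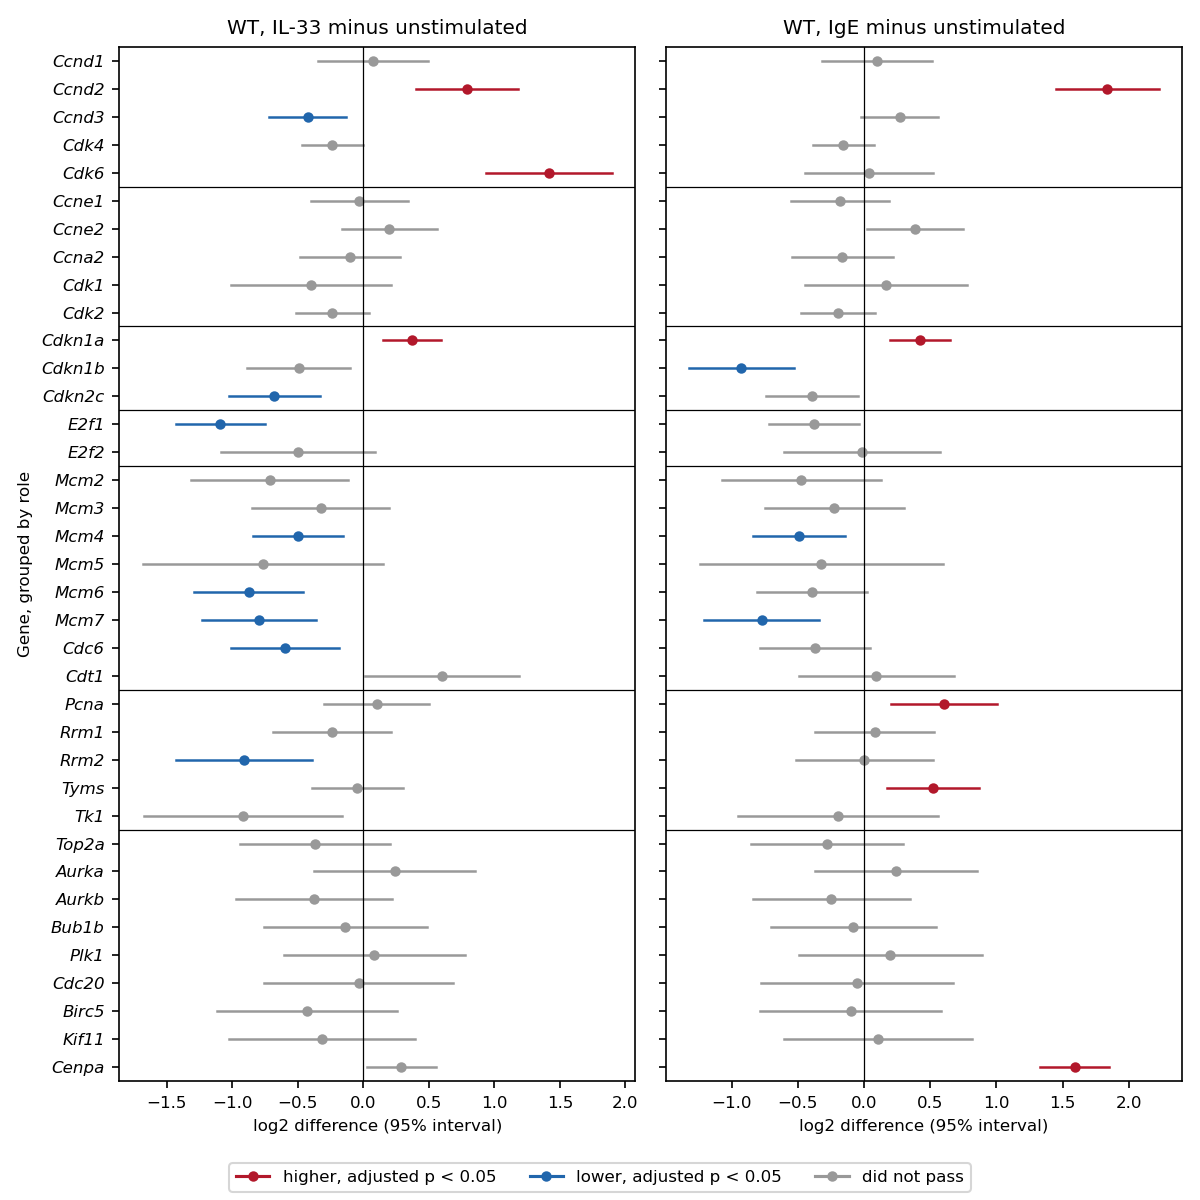
Paired log2 difference with its 95% interval (x axis) of each tested gene (rows, by role) in WT cells, with IL-33 minus no stimulation on the left and IgE minus no stimulation on the right. Red and blue mark genes past an adjusted p of 0.05: Ccnd2 and Cenpa stand at 1.84 and 1.59 with IgE, and Cdk6 and E2f1 at 1.42 and -1.09 with IL-33.

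IL-33 was also set against IgE in WT cells. Here 1 of 37 genes was higher and 6 were lower under IL-33, where 7.58% of all genes were higher and 8.25% lower. Cdk6 was 2.60-fold higher under IL-33 (1.38 ± 0.23, adjusted p = 0.000429). Lower under IL-33 were Cenpa (-1.30 ± 0.12, adjusted p = 2.11e-06), Ccnd2 (-1.05 ± 0.18, adjusted p = 0.000723), Ccnd3 (-0.70 ± 0.14, adjusted p = 0.00193), E2f1 (-0.71 ± 0.16, adjusted p = 0.00517), Rrm2 (-0.92 ± 0.24, adjusted p = 0.0161) and Tyms (-0.57 ± 0.17, adjusted p = 0.0253). All 3 numbers had the same direction for each of these 7 genes. The call of E2f1 was lost without WT IL-33 array 1 (adjusted p = 0.0649), that of Rrm2 without WT IgE array 3 or WT IL-33 array 1 or 2 (up to 0.142), and that of Tyms without WT IgE array 1 or 3 or any WT IL-33 array (up to 0.182). No licensing gene passed in limma, with 1 at an unadjusted p under 0.05. Without the pairing only Cenpa passed, where 4.43% of all genes did. Without the arrays numbered 3, 2 genes were higher and 8 lower, where 10.6% and 12.7% of all genes were, and without WT IL-33 array 1 the count was 4.

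In ST2KO cells, IgE gave 6 genes that rose and 2 that fell, where 15.1% of all genes rose and 18.7% fell. Without the pairing 2 rose and 0 fell, where 12.6% of all genes passed, and leaving out 1 array gave between 5 calls (without unstimulated ST2KO array 3) and 11 (without ST2KO IgE array 1). Ccnd2 had levels of 11.31, 11.05 and 9.55 on ST2KO IgE arrays, against 9.35, 9.14 and 8.16 on unstimulated ST2KO arrays, and rose by 1.75 ± 0.18 (adjusted p = 3.46e-06). Cenpa had 13.33, 13.35 and 13.86, against 11.79, 11.32 and 12.50 without stimulation, and rose by 1.65 ± 0.12 (adjusted p = 2e-07). In both genes the groups did not overlap, and both calls held without the pairing.

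Cdkn1a had levels of 12.03, 12.06 and 12.26 on ST2KO IgE arrays, against 11.38, 11.61 and 11.90 unstimulated, and rose by 0.49 ± 0.11 (adjusted p = 0.00202). Cdkn1b had 4.87, 4.45 and 5.77, against 5.51, 5.65 and 6.85 unstimulated, and fell by 0.98 (SE 0.19, adjusted p = 0.000705). E2f1 had 8.08, 7.93 and 7.56, against 8.67, 8.55 and 8.10 unstimulated, and fell by 0.59 (SE 0.16, adjusted p = 0.00965), lost without ST2KO unstimulated array 2 (adjusted p = 0.0586). Cdkn1a and E2f1 did not overlap between the groups, and Cdkn1b did, which was detected on 1 of the ST2KO IgE arrays with a detection value.

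Cdk1, Cdt1 and Tyms also rose with IgE in ST2KO cells, and each of them moved most on array 3. Cdt1 had levels of 8.29, 8.72 and 7.93, against 7.95, 7.91 and 6.00 unstimulated, with numbered differences of 0.34, 0.81 and 1.93 (1.02 ± 0.28, adjusted p = 0.00919). Cdk1 had 8.18, 7.87 and 7.19, against 7.88, 7.23 and 5.17 unstimulated (0.99 ± 0.29, adjusted p = 0.0144). Both calls were lost without ST2KO unstimulated array 3 or ST2KO IgE array 3 (adjusted p up to 0.131), and without the 6 arrays numbered 3 Cdt1 stood at 0.57 and Cdk1 at 0.47 (adjusted p = 0.00328 and 0.018). Tyms had 9.54, 9.30 and 7.30, against 9.21, 8.98 and 6.49 unstimulated (0.48 ± 0.17, adjusted p = 0.0324), lost without any unstimulated ST2KO array or ST2KO IgE array 3 (up to 0.242).

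Pcna, Ccnd3 and Ccnd1 did not pass with IgE in ST2KO cells. Pcna had 7.32, 7.74 and 6.96, against 7.29, 6.94 and 6.46 unstimulated (0.45 ± 0.19, adjusted p = 0.081), and overlapped. Ccnd3 had 11.89, 11.77 and 11.03, against 11.74, 11.75 and 10.35 unstimulated (0.29 ± 0.14, adjusted p = 0.127), higher by number throughout. Ccnd1 lay between 4.44 and 4.82 in both groups, near background.

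The median of the 37 genes with IgE in ST2KO cells was -0.23 on number 1, -0.11 on number 2 and 0.55 on number 3. Mcm5 stood at 0.57 over all arrays, but its levels were 9.56, 9.47 and 8.29 on ST2KO IgE arrays, against 10.08, 9.74 and 5.79 unstimulated. Arrays 1 and 2 were lower under IgE and array 3 was higher, by 2.49. Without the arrays numbered 3, 6 genes rose and 9 fell, where 17.1% of all genes rose and 21.9% fell, and Mcm5 and Kif11 then passed as lower (-0.40 and -0.62, adjusted p = 0.00889 and 0.0129). The response to IgE was also tested between genotypes: 0 of 37 genes passed in limma, with 1 at an unadjusted p under 0.05, and 0% of all genes passed. Without the arrays numbered 3 the count was also 0, where 0.161% of all genes had a positive and 0.095% a negative difference. The differences between the responses lay between -0.31 and 0.93. Over all genes, the median 95% interval for such a difference reached 0.50 to either side.

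In ST2KO cells, IL-33 gave 0 calls among the 37 genes and 0% among all genes in limma, with 1 and 390 at an unadjusted p under 0.05. The gene of the 37 was Cdc6, with 6.62, 6.68 and 7.25 on ST2KO IL-33 arrays, against 6.54, 5.96 and 6.80 unstimulated (0.41, 95% interval 0.00 to 0.83, adjusted p = 1). Cdk6 had 5.42, 5.54 and 6.01, against 5.45, 4.92 and 6.34 unstimulated, and Ccnd2 had 9.35, 9.12 and 8.15, against 9.35, 9.14 and 8.16. Both groups of each gene overlapped and their means were close, at a difference of 0.09 for Cdk6 (95% interval -0.40 to 0.57) and -0.01 for Ccnd2 (-0.40 to 0.38). E2f1 had 8.56, 8.19 and 7.97, against 8.67, 8.55 and 8.10, a difference of -0.20 (-0.54 to 0.14). Pcna had 7.58, 7.36 and 6.58, against 7.29, 6.94 and 6.46, and was higher by number throughout (0.28, -0.12 to 0.68). Mcm5 had 10.17, 9.70 and 6.18, against 10.08, 9.74 and 5.79, so array 3 was low in both groups. Cdkn1a had 11.39, 11.76 and 11.92, against 11.38, 11.61 and 11.90, and Cdkn1b had 5.70, 5.61 and 7.40, against 5.51, 5.65 and 6.85. Neither inhibitor passed, at 0.06 and 0.23.

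The response to IL-33 differed between genotypes for 4 of 37 genes, 2 with a positive and 2 with a negative difference of ST2KO minus WT response, where 8.94% and 6.63% of all genes had one. Cdk6 differed by -1.33 ± 0.32 (adjusted p = 0.00982), Ccnd2 by -0.80 ± 0.26 (adjusted p = 0.0456), E2f1 by 0.89 ± 0.23 (adjusted p = 0.0132) and Cdc6 by 1.02 ± 0.28 (adjusted p = 0.019). On each of the 3 numbers each of these genes had the same sign. Cdk6 held with any 1 array left out, but with pairing by number across genotypes neither Cdk6 nor Ccnd2 passed (adjusted p = 0.0508 and 0.0649). E2f1 was lost without WT unstimulated array 1 or WT IL-33 array 1 or 2 (up to 0.0639), and Cdc6 without array 1 or 2 of WT unstimulated or WT IL-33 cells, ST2KO unstimulated array 2 or ST2KO IL-33 array 2 or 3 (up to 0.0794). Ccnd2 was lost in 13 of 18 fits that left out 1 array, with adjusted p up to 0.184. The count of 4 ranged between 1 (without WT unstimulated array 1) and 10 (without WT unstimulated array 3). With the arrays scaled by their medians 5 were positive and 1 negative, and the median of all genes moved to 0.20. Without the pairing 0 of 37 passed, with 3 at an unadjusted p under 0.05, where 2.72% of all genes passed, and without the arrays numbered 3 13 were positive and 3 negative, where 15.5% and 11.5% of all genes were. Among those were 6 of 8 licensing genes, all positive.

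**Figure D5:**
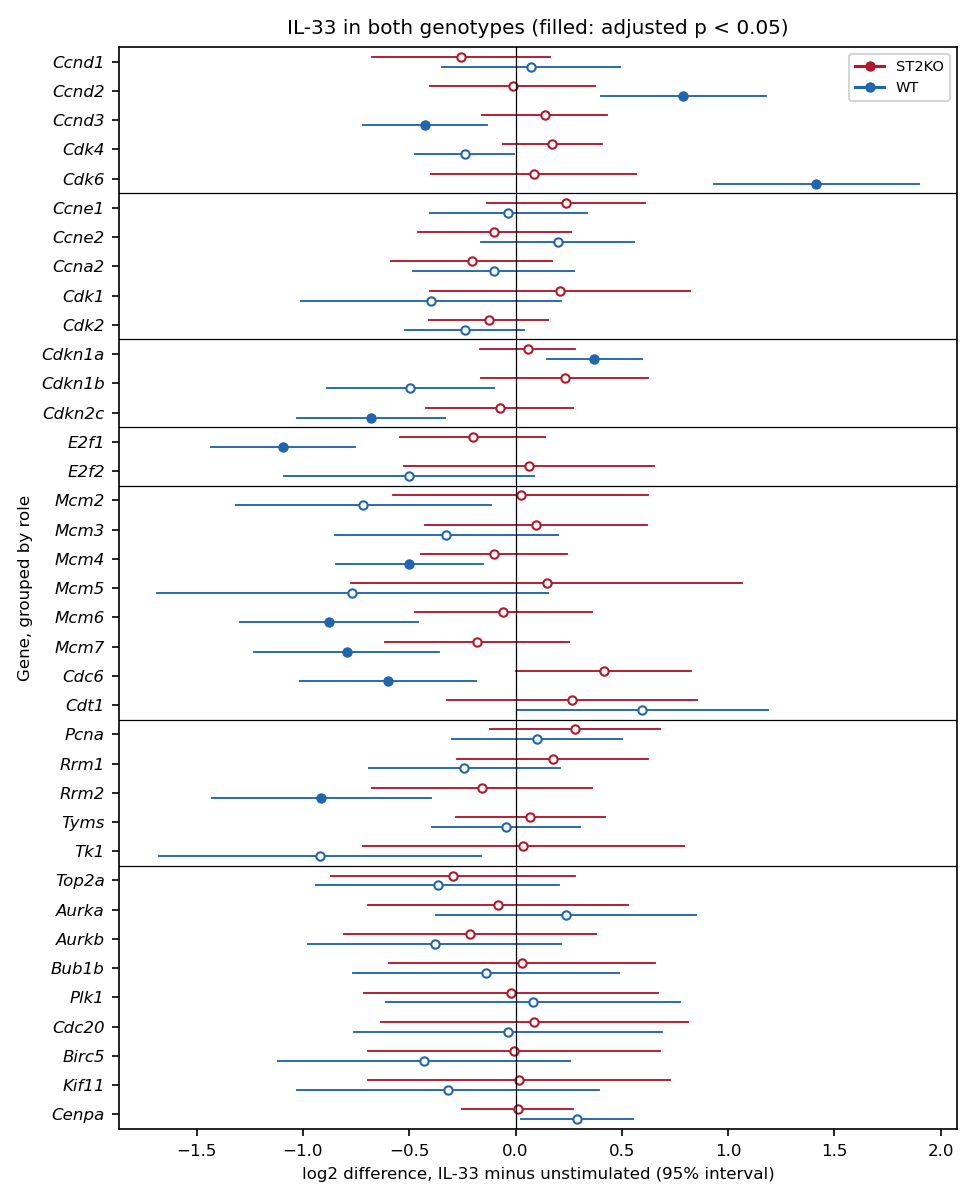
Paired log2 difference of IL-33 minus no stimulation with its 95% interval (x axis) for each tested gene (rows, by role), in ST2KO cells (red, upper of each pair) and WT cells (blue, lower), filled where the adjusted p passed 0.05. In ST2KO cells no point is filled, and in WT cells 11 are, with Cdk6 at 1.42 in WT and 0.09 in ST2KO cells.

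Unstimulated ST2KO cells were compared with unstimulated WT cells. None of the 37 genes passed in limma, where 0.0665% of all genes were higher and 0.133% lower, but 11 had an unadjusted p under 0.05, against 882 of 10529 genes. Without the pairing 0 of 37 passed too, with 0 at an unadjusted p under 0.05, where 0.0095% of all genes passed. The median of the 37 genes was -0.42, against 0.01 over all genes (-0.12 with median scaling, where the median of the 37 was -0.57). Mitosis genes had the lowest median of the roles, -0.87, and 6 of 9 had an unadjusted p under 0.05. Among markers of other cells, the basophil gene Prss34 was lower in ST2KO cells (-1.36 ± 0.22, adjusted p = 0.0105, limma). The basophil list did not move with it: its 4 tested markers had a median of 0.21 and a highest value of 0.39. The 9 macrophage and dendritic cell markers had a median of -0.41, with 3 at an unadjusted p under 0.05. The 3 erythroid markers lay between -0.55 and -0.41. Without the arrays numbered 3 the macrophage and dendritic cell markers had a median of -0.02, and 0 passed in limma. The erythroid markers then had a median of -0.56, with 1 lower, and the mitosis genes -0.53, with 4 lower. The part of these markers in the lower values of the mitosis genes was not tested. Cdk1 had levels of 7.88, 7.23 and 5.17 in ST2KO cells, against 8.41, 8.30 and 7.42 in WT cells (-1.28 ± 0.35, adjusted p = 0.226). Birc5 had 8.24, 7.86 and 5.57, against 8.59, 8.86 and 7.72 (-1.17 ± 0.43, adjusted p = 0.473). In both genes each ST2KO array was lower than the WT array of its number, by the most on number 3. Without the arrays numbered 3, 0 of 37 genes were higher and 9 lower, where 3.04% of all genes were higher and 2.73% lower. Those 9 included Cdk1 (-0.80), Top2a (-0.67), Bub1b (-0.69), Birc5 (-0.68) and Cenpa (-0.53), with adjusted p between 0.00399 and 0.0301.

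Other genes of the same pathway, from lists of genes outside the 44, were examined in WT cells. Over all genes, 13.5% rose and 18% fell with IL-33, and 14.6% rose and 17.9% fell with IgE. Of 12 other G1/S regulators tested, 0 rose and 3 fell with IL-33, and 1 rose and 3 fell with IgE. Without the pairing 0 rose and 2 fell with IL-33, and 0 rose and 1 fell with IgE. Tfdp2, a dimer partner of E2F factors, stood at -1.75 ± 0.16 with IL-33 (adjusted p = 1.24e-06), and Rb1, the retinoblastoma gene, at -0.87 ± 0.10 (adjusted p = 1.04e-05). With IgE Tfdp2 stood at -0.56 and Rb1 at -0.51, and Rbl2, a relative of Rb1, at -0.99 (adjusted p = 0.0038) and, with IL-33, at -0.96. Rbl2 did not pass with either stimulus without the pairing (adjusted p = 0.0911 and 0.103), nor did Tfdp2 with IgE (0.139). Of 13 other inhibitors and arrest genes, 4 rose and 7 fell with IL-33, and 4 rose and 5 fell with IgE. Without the pairing 1 rose and 4 fell with IL-33, and 1 rose and 1 fell with IgE. Klf2, a quiescence factor of lymphocytes, stood at -2.08 ± 0.27 with IL-33 (adjusted p = 3e-05), the INK4 inhibitor gene Cdkn2d at -1.28 ± 0.17 (adjusted p = 3.21e-05) and the growth arrest gene Gadd45a at -0.87 (adjusted p = 5.19e-05, but 0.119 without the pairing). With IgE Gadd45a stood at -1.21 ± 0.12 (adjusted p = 2.3e-06).

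Of 34 other replication genes tested, 1 rose and 9 fell with IL-33, and 0 rose and 8 fell with IgE, where 18% and 17.9% of all genes fell. Without the pairing 0 rose and 2 fell with each stimulus. Without the arrays numbered 3, 1 rose and 19 fell with IL-33 and 1 rose and 18 fell with IgE, where 23.4% and 21.9% of all genes fell. The clamp loader gene Rfc2 stood at -1.06 ± 0.15 with IL-33 (adjusted p = 7.12e-05), Chaf1b, a subunit of a histone chaperone of replication, at -1.02 ± 0.16 (adjusted p = 0.000113), and Lig1, the ligase of lagging strand synthesis, at -0.79 ± 0.21 with IgE (adjusted p = 0.00726). Chaf1b and Lig1 did not pass without the pairing (adjusted p = 0.106 and 0.322). Of 27 other mitosis genes, 2 rose and 3 fell with IL-33, where 13.5% of all genes rose and 18% fell. With IgE 0 of them passed in limma, with 3 at an unadjusted p under 0.05. Without the pairing 0 passed with either stimulus, with 3 and 1 at an unadjusted p under 0.05, while without the arrays numbered 3, 2 rose and 9 fell with IL-33 and 0 rose and 8 fell with IgE. Of 9 housekeeping genes tested, 1 rose and 1 fell with IL-33 and 2 rose with IgE. Of 9 macrophage and dendritic cell markers in WT cells, 3 rose and 0 fell with IL-33, while 0 rose and 2 fell with IgE. With IL-33, Cd74 rose by 2.39 (adjusted p = 8.24e-05), H2-Ab1 by 0.63 and Adgre1 by 0.54. With IgE, Lyz2 fell by 0.71 (adjusted p = 0.00118) and Adgre1 by 0.60 (adjusted p = 0.0227), and in ST2KO cells with IgE they fell by 0.91 and 0.70. Of 4 basophil markers in WT cells, 1 rose and 2 fell with each stimulus, with Mcpt8 at 1.08 with IL-33 and 1.40 with IgE, and Prss34 passed with IgE at -0.84. None of these markers passed without the pairing. Their part in the changes of the cell cycle genes was not tested.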

How the data were processed

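Labelled RNA from 18 samples was measured on Illumina bead arrays. The deposited intensity of each probe was not normalized, and, as the deposited columns are headed, a detection p-value stood beside it, per the file headers. The authors' deposited value table held log2 values with a median of 4.243, nearly equal between arrays, and the steps behind it are not given in the sources used here. Median intensity was 86.43 to 97.86 and 35.14% to 38.63% of 45281 probes were detected on the 17 complete arrays. The number of arrays limits the precision, with a median 95% half-width of 0.35 log2 units for a WT difference.

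Intensities were background corrected and quantile normalized with limma 3.58.1 (neqc, offset 16) in R 4.3.3. Array 3 of ST2KO IgE, deposited with 10012 probes, was placed by rank of the authors' log2 values. Probes detected (p under 0.05) on at least 3 arrays were kept, and each gene was taken from its brightest probe, giving 10529 genes. Of the probes, 34885 had 1 gene symbol, 18 had several and 10378 were not listed, and only those with 1 symbol were named. limma with an intensity trend was run on all 18 arrays with the array number within genotype as a block (8 residual degrees of freedom), or the shared number for ST2KO against WT (10). P-values were adjusted over all genes by Benjamini-Hochberg. Same-numbered arrays of a genotype had residuals correlated at 0.511 to 0.918, and of different genotypes at 0.397 to 0.727. For arrays of different numbers and groups these were -0.854 to 0.719 and -0.674 to 0.604, so the ranges overlapped. On simulated data for IgE in WT cells (10529 genes), 94.5% of 200 genes changed by log2 1 were recovered, with 4.06% false calls. On the measured arrays of that comparison, number 3 opposed both other numbers in 18.4% of all genes. The rate of false calls on the measured arrays was not tested.

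Genes given array by array were up to 6 per direction with the smallest adjusted p in a comparison, with Pcna, the D cyclins, Cdkn1a, Cdkn1b and Mcm5 always included, and up to 4 per list of other pathway genes. The genes and lists were chosen with earlier results of these data known. Alternatives covered the block, background, scaling, detection filter, probe choice, variance settings, the authors' values, leaving out each array, and leaving out the arrays numbered 3. The transcript of the ST2 gene was not analysed here.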

Additional observations from a re-analysis of the deposited data

Results flagged for a closer look

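For 4 cell cycle genes, the test of the difference between the genotypes in the response to IL-33 passed an adjusted p of 0.05 in limma. The difference, ST2KO response minus WT response in log2 units, was -1.331 for Cdk6, -0.802 for Ccnd2, 0.89 for E2f1 and 1.016 for Cdc6, with the same sign on all 3 array numbers for each gene. For Cdc6 the difference combined 0.41 in ST2KO cells with -0.60 in WT cells.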

How the results depend on the processing

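The pairing by array number and the arrays numbered 3 moved the counts most. Without the replicate block, calls among the 37 genes numbered 2 for IgE in WT, 2 for IL-33 in WT, 1 for IL-33 against IgE, 2 for IgE in ST2KO and 0 for the genotype difference in the IL-33 response, against 8, 11, 7, 8 and 4 with it. Pairing by number across genotypes gave 2 for that last comparison, where Cdk6 and Ccnd2 no longer passed, and it also ended the calls of Mcm7 and Tyms in each comparison that made them and of Ccnd3 and Cdkn1a with IL-33 in WT cells. Fitting only the groups compared gave 8 for the genotype difference in the IL-33 response. Without the 6 arrays numbered 3 the counts were 21, 20, 10, 15 and 16, and 9 for unstimulated ST2KO against WT, which had 0. In that fit, which rests on arrays 1 and 2 of each group alone, the IgE difference in ST2KO cells turned to -0.398 for Mcm5 and -0.621 for Kif11. Leaving out 1 array gave 4 to 11, 5 to 17, 4 to 8, 5 to 11 and 1 to 10 calls for the first comparisons in that order, and 0 to 0 for IL-33 in ST2KO, unstimulated ST2KO against WT and the genotype difference in the IgE response. The cause was not tested. Of 8864 values of single genes under all alternatives, 8589 kept their side of the threshold, 128 newly passed and 145 no longer passed. The other 2 turned direction and passed in the alternative fit. Values that passed in neither fit count among the 8589 whatever their direction. With 3 arrays a group, a genotype difference in a response smaller than about 0.5 log2 units lay within the median interval over all genes. Listed genes with a larger SE, such as Mcm5, had wider intervals. Ccna2 and Ccnd1 lay near background.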
